A study of Mus musculus with 4 samples.

Results

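Acetate, the shortest of the fatty acids made by bacteria in the large intestine, was infused into the cecum of mice, and liver gene expression was compared with that of mice given saline by the same route. The genes compared were selected by a rule on their level, set with earlier results of these data known. Probe sets with a single gene symbol were averaged per symbol, and a gene was kept where its mean over the 4 arrays of the study reached the median of all genes' means, 5.55 on the log2 scale. This kept 9410 of 18820 genes. Nmnat3 lay just above this floor (mean 5.546) and Slc30a3 just below it (mean 5.545).

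All animals were male C57BL/6J mice aged 16-17 weeks. Each had been kept for 6 weeks on a semi-synthetic diet with palm oil as fat and had a permanent cecum catheter. After a morning fast from 6:00 to 10:00, the acetate mice received 0.3 M sodium [1-13C]acetate at 0.2 ml/h, which gave 2.4 mmol/h/kg, and the control mice received phosphate-buffered saline. Livers were taken after 6 h. RNA of 6 mice per group was pooled, 500 ng from each, and 100 ng of each pool was labelled for 1 array. The propionate pool (6 mice) and the butyrate pool (4 mice), infused in the same way at the same molar rate, serve here as points of reference. Only RNA with an integrity number above 8 was used. The labels do not state how much sodium the saline held, and the control is not known to match the sodium load of the acetate mice.

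A pool gives the average of its mice and hides how they differed, and a single liver can carry a difference. With 1 array per group there is no spread between replicates, no test and no p-value, so every ratio describes these pools only. In whole liver, fewer cells of a type and less RNA per cell cannot be told apart.

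As background, acetate absorbed from the gut reaches the liver through the portal vein. Cells turn it into acetyl-CoA with acetyl-CoA synthetases, Acss2 in the cytosol and Acss1 in mitochondria, and acetyl-CoA then feeds the TCA cycle, ketone bodies, fatty acids and cholesterol or is used to acetylate proteins. Acetate that the liver does not use passes to muscle and other tissues, and it is also a ligand of the surface receptors Ffar2 and Ffar3.

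The acetate and control pools were alike in most genes. Of the 9410 genes, 68.5% lay within 1.1-fold of control, 90.1% within 1.2-fold and 96.4% within 1.3-fold. At least 1.5-fold higher with acetate (0.58 on the log2 scale) were 59 genes, or 0.627% of those compared, and at least 1.5-fold lower were 48, or 0.51%. At 2-fold the counts were 14 and 7. Across genes the log2 ratios had a standard deviation of 0.18. Among 1237 genes of olfactory, vomeronasal, taste receptor and keratin-associated families, which liver does not use, the standard deviation was 0.16, and 2 were at least 1.5-fold higher and 3 lower. Higher genes were found mostly at low levels, with 27, 20, 9 and 3 in 4 equal bins of rising mean level, whereas lower genes numbered 14, 11, 8 and 15. With no floor, 131 of the 18820 genes (0.696%) were at least 1.5-fold higher and 93 (0.494%) lower. In 10 of the 59 higher genes the control level lay below the floor, and in 6 of the 48 lower genes the acetate level did, so the size of those ratios is not exact. Rhoc was just inside the 1.5-fold limit on the higher side (1.503-fold) and the glutathione synthesis gene Gclc just outside it (1.499-fold). On the lower side Ammecr1 (1.502-fold) was inside and Cux2 (1.494-fold) outside.

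**Figure D1:**
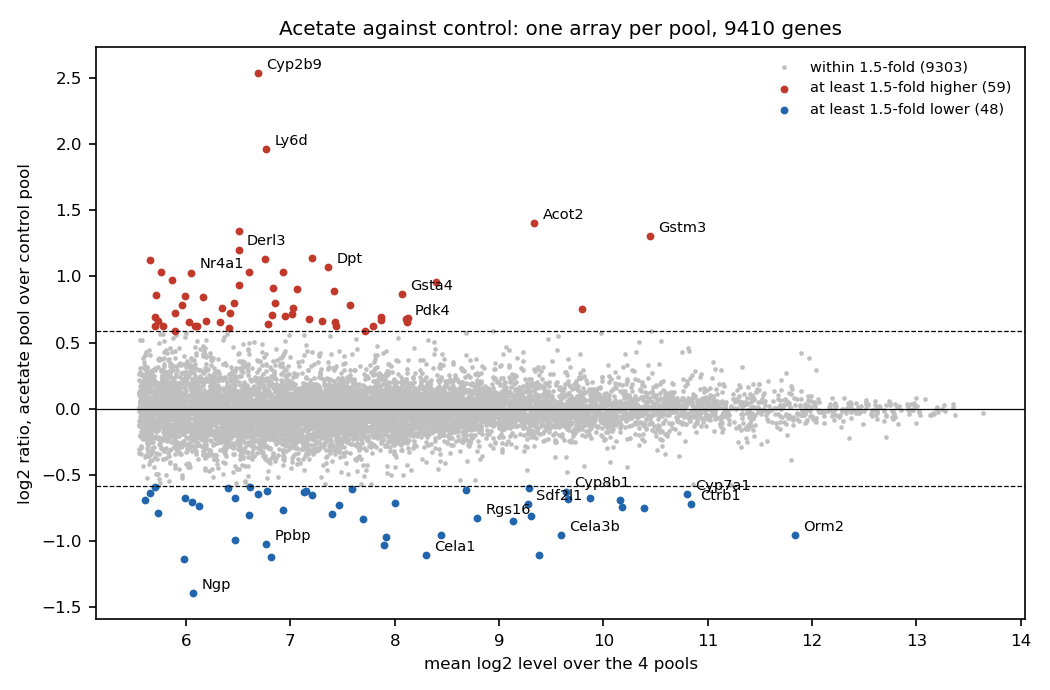
Log2 ratio of the acetate pool over the control pool (vertical axis) against mean log2 level over the 4 pools (horizontal axis) for 9410 genes, 1 point per gene; dashed lines mark 1.5-fold. The 59 higher genes (red) lie mostly at low levels, with Acot2 and Gstm3 further right, and the 48 lower genes (blue) reach the high levels of Orm2 and Cyp7a1.

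Gene lists of 60 pathways and cell types are described below by how many measured members lay above control and by their median log2 ratio, whatever the members' levels. For reading them, 50.5% of all 18820 genes lay above control, with a median of 0.0020, and 46.2% of the 9410 genes at or above the floor, with a median of -0.011. For some lists the number of members in which acetate was the highest or lowest pool is given too. The share of all genes in which it was so was not determined. Those numbers therefore describe the lists and cannot show that a list differs from genes in general.

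Genes that take up acetate and turn it into acetyl-CoA differed little. Of 12 measured genes of acetate activation and acetyl-CoA handling, 7 lay above control, and no member reached 1.5-fold (median 0.0043). Acss2, the cytosolic acetyl-CoA synthetase, stood at 10.24 in the control pool, 10.01 with acetate, 10.01 with propionate and 9.75 with butyrate, so control was the highest of the 4 pools. The mitochondrial synthetase Acss1 lay below the floor in all 4 pools (4.89 in control and 4.98 with acetate). Acly, which makes acetyl-CoA from citrate, had the largest positive ratio in the list, 0.17, with levels of 8.88, 9.05, 8.80 and 8.73 in the same order of pools. Citrate synthase Cs, the carnitine acetyltransferase Crat, the acetyl-CoA hydrolase Acot12, the citrate carrier Slc25a1, the acetyl-CoA transporter Slc33a1, Acat1, Nudt7, Nudt19 and Acss3 had log2 ratios between -0.06 and 0.05. Monocarboxylate transporters, which carry short acids across membranes, were close to control as well. Slc16a1 (8.67 in control and 8.81 with acetate) and Slc16a7 (9.82 and 9.96) were both at a ratio of 0.14. The acetate receptor genes Ffar2 (4.75 and 4.79) and Ffar3 (3.52 in both pools) and the hydroxy acid receptor Hcar2 (5.01 and 4.98) lay below the floor, as did 7 of 11 members of the transport and receptor list.

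The largest differences between the pools were in genes of detoxification. They were measured on probe sets that the one-symbol rule leaves out: 4 probe sets that the annotation assigns to several alpha-class glutathione transferases at once (Gsta1 and Gsta2, with 1 or 2 gene models), enzymes that join glutathione to reactive compounds. Which of these genes gave the signal cannot be told from the probe sets. Their levels were 5.85 to 6.34 in the control pool, 8.77 to 9.59 with acetate, 7.87 to 8.63 with propionate and 5.89 to 6.35 with butyrate. The acetate pool was thus 7.47- to 9.91-fold above control, butyrate lay at the control level, and propionate lay in between with log2 ratios of 1.97 to 2.35. Among 835 probe sets with several symbols at or above the floor, 8 (0.958%) were at least 1.5-fold higher and 2 (0.24%) lower.

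Other glutathione genes were higher by less. Gstm3, a mu-class transferase, stood at 9.95 in control, 11.25 with acetate, 10.86 with propionate and 9.72 with butyrate, which is 2.47-fold above control. Its 2 probe sets gave log2 ratios of 0.96 and 1.65, and short probes can bind transcripts of close relatives, so the member is uncertain. Gsta4, which acts on products of lipid peroxidation, stood at 7.76, 8.62, 8.15 and 7.76 in the same order, or 1.82-fold above control. NRF2 is the transcription factor that drives antioxidant genes. Of its 22 measured targets 19 lay above control with a median of 0.20, and acetate was the highest of the 4 pools in 14. Gclc, the catalytic subunit of glutathione synthesis, was at 10.21 in control and 10.79 with acetate, and Nqo1, a quinone reductase near the floor, at 5.15 and 5.66. The haem oxygenase gene Hmox1 went the other way: it was lowest with acetate (9.05), against 9.53 in control, 9.98 with propionate and 10.05 with butyrate. With the mean of all 3 other pools as comparator the median of the NRF2 list was 0.099.

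Cyp2b9, a cytochrome P450 that is female-biased in mouse liver, had the highest ratio among genes with a symbol of their own. Its levels were 5.45 in control, 7.99 with acetate, 8.28 with propionate and 5.05 with butyrate, so the acetate and propionate pools were high and the other 2 lay below the floor. Its relative Cyp2b10, the classical target of the xenobiotic receptor CAR, stood at 4.21, 5.81, 4.39 and 4.12 and passed the floor with acetate alone. Among 21 measured targets of CAR and PXR, 14 lay above control (median 0.13), and 2 with a mean level at or above the floor, Cyp2b9 and Gstm3, reached 1.5-fold. The PXR target Cyp3a11 was at 10.98 in control and 11.33 with acetate, whereas the carboxylesterase Ces2a was lower, at 8.41 and 8.11. With only members at or above the floor in both pools the median of the list was 0.017. Of 15 measured female-biased liver genes 10 lay above control, and their median of 0.17 was 0.033 against the mean of the propionate and butyrate pools.

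**Figure D2:**
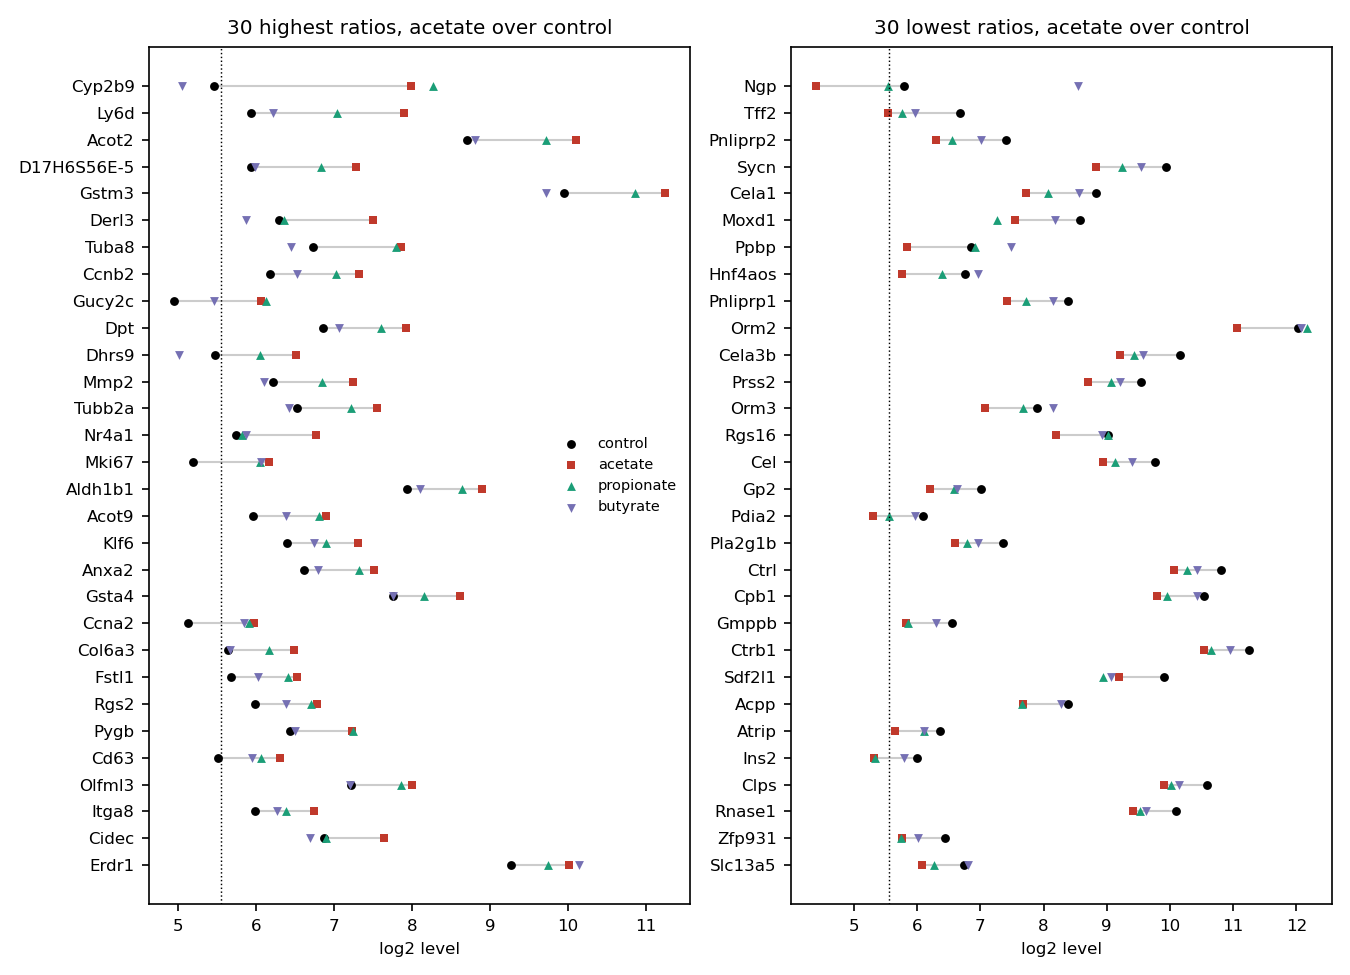
Log2 level (horizontal axis) of the 30 genes with the highest (left) and the 30 with the lowest (right) acetate-over-control ratio, 1 row per gene and 1 symbol per pool; the grey bar joins control and acetate, and the dotted line is the level floor. For many genes on the left propionate lies between control and acetate and butyrate lies near control, as for Gstm3 and Acot2, whereas Derl3, Nr4a1 and Cidec are high with acetate alone.

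Genes of fatty acid use under PPARalpha, the liver's receptor for fatty acids, were mostly higher with acetate. Of 22 measured targets 19 lay above control, with a median of 0.21. At least 1.5-fold higher were 3 of them, and acetate was the highest of the 4 pools in 15. Acot2, a mitochondrial enzyme that releases fatty acids from CoA, led with levels of 8.71 in control, 10.11 with acetate, 9.73 with propionate and 8.81 with butyrate (2.64-fold). The lipid droplet protein Cidec stood at 6.88, 7.64, 6.90 and 6.69, so that it was high with acetate alone (1.69-fold). Pdk4, a kinase that switches pyruvate dehydrogenase off, stood at 8.12, 8.80, 8.12 and 7.40: acetate was 1.60-fold above control and butyrate lay below control. The fatty acid carrier Cd36 stood at 9.15 with acetate and 9.13 with propionate against 8.57 in control. The cytosolic thioesterase Acot1 (6.91 in control and 7.47 with acetate) was 1.47-fold higher and the peroxisomal enzyme Ehhadh (10.64 and 11.10) 1.38-fold. The 3 targets below control, Cpt1a (12.04 and 11.94), Vnn1 (9.45 and 9.40) and Creb3l3 (10.34 and 10.30), lay close to it. Slc25a20 (10.31 and 10.35) and Fabp1 (12.51 and 12.52) were close to control as well. Among 14 measured acyl-CoA thioesterases 11 lay above control (median 0.14), with Acot9, a mitochondrial member, at 5.96, 6.89, 6.80 and 6.38 (1.91-fold). Acot1 and Acot2 are close paralogs, so their probe sets may share signal. Of 11 adipocyte markers, which include Cidec, 5 lay above control with a median of -0.034, but 6 of the 11 had a mean level below the floor. The 5 at or above it had a median of 0.17, with the fat droplet gene Plin4 at 7.20 in control and 7.76 with acetate. Fabp4 (7.40 and 7.57) lay above control too, whereas Car3 (12.17 and 12.07) and Lipe (7.14 and 7.06) lay below. Of those under the floor, Ucp1 (4.40 and 3.46), Cidea (4.20 and 3.81), Adipoq (4.73 and 4.58) and Plin1 (5.46 and 5.42) lay below control, and Lep and Retn above. The median of all 11 against the mean of propionate and butyrate was 0.36. The part of fat cells in the values of Cidec and the other lipid genes was not tested.

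Enzymes of fatty acid oxidation as a whole lay closer to control, with 15 of 22 above it and a median of 0.042. In the TCA cycle 14 of 17 enzymes lay above control by a median of 0.076, acetate was the highest pool in 12, and none reached 1.5-fold. Idh2, the mitochondrial NADP-dependent isocitrate dehydrogenase, had the largest ratio, with 9.38 in control, 9.74 with acetate, 9.60 with propionate and 9.29 with butyrate. All 6 measured genes of ketone body metabolism lay above control, by at most 0.15. In the respiratory chain 38 of 67 subunits lay above control (median 0.021).

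Genes that build fatty acids and cholesterol, which start from acetyl-CoA, showed no common direction. Of 23 genes of de novo lipogenesis 12 lay above control (median 0.028). Pnpla3, a lipid droplet gene of the lipase family, was at 6.55 in control and 6.17 with acetate, whereas the fatty acid elongase Elovl6 (10.42 and 10.69) and the pentose phosphate enzyme Pgd (8.21 and 8.52) lay above control. Of 17 cholesterol synthesis enzymes 9 lay above control (median 0.0059, mean -0.021), with ratios between -0.22 for Mvd and 0.21 for Cyp51. Genes of gluconeogenesis were split 9 to 7 (median 0.028). The fasting coactivator Ppargc1a had the largest ratio there, at 8.16 in control, 8.67 with acetate, 8.29 with propionate and 8.38 with butyrate, and the fasting-responsive binding protein Igfbp1 followed at 11.68, 12.10, 11.83 and 11.96. Slc13a5, the plasma membrane citrate transporter, was 1.60-fold lower with acetate than control, at 6.75, 6.07, 6.27 and 6.81. In urea cycle and glutamine genes (5 of 10 above control, median 0.0018), propionate breakdown (5 of 10, median 0.012) and amino acid breakdown (13 of 28, median -0.014) no gene reached 1.5-fold. The branched-chain aminotransferase Bcat2 (7.70 and 7.22) had the lowest ratio of these.

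In bile acid metabolism both enzymes that set the amount and the kind of bile acid were lower. Cyp7a1, the rate-limiting enzyme of synthesis, stood at 10.99 in control, 10.34 with acetate, 10.80 with propionate and 11.07 with butyrate (1.56-fold lower than control). Cyp8b1, which makes the precursor of cholic acid, stood at 9.69, 9.06, 9.70 and 10.11 (1.54-fold lower). In both the acetate pool was the lowest of the 4, and for Cyp8b1 it was at least 1.5-fold below every other pool. These 2 genes were the only ones of 25 measured in the list past 1.5-fold. In all 16 lay below control, with a median of -0.052. The other synthesis enzymes Cyp27a1 (-0.04) and Cyp7b1 (-0.06), the repressor Nr0b2 (0.09), the export pump Abcb11 (0.04) and the uptake carrier Slc10a1 (-0.06) lay close to control.

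**Figure D3:**
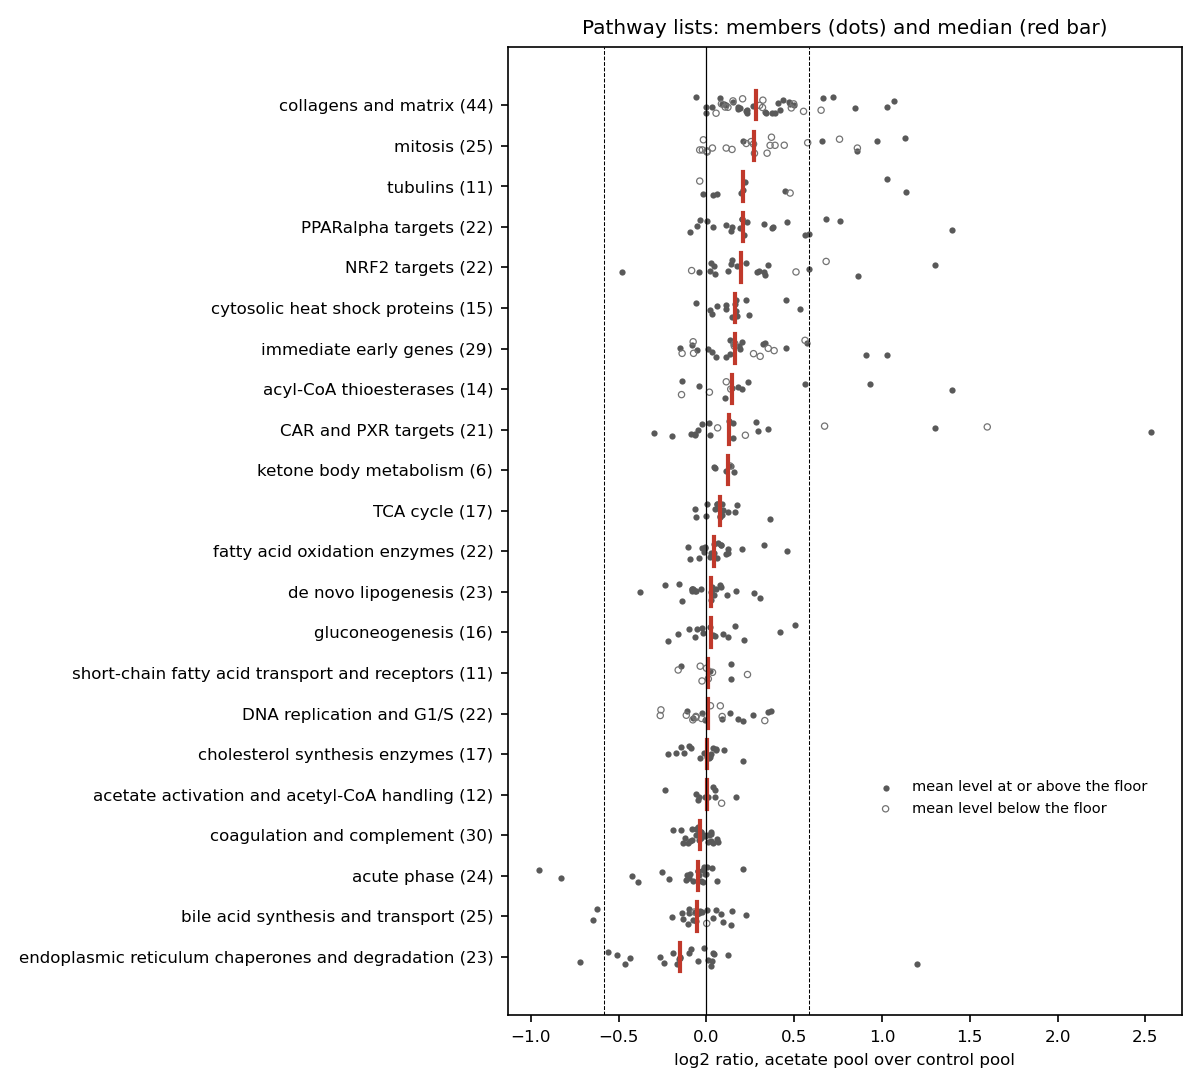
Log2 ratio of acetate over control (horizontal axis) for the members of 22 pathway lists, with the number of measured members in brackets; filled dots have a mean level at or above the floor, open dots below it, red bars are medians and dashed lines mark 1.5-fold. The medians run from -0.15 for endoplasmic reticulum chaperones to 0.28 for collagens and matrix, and a few members lie far from their list's median, such as Derl3 and Cyp2b9.

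Genes of protein folding in the endoplasmic reticulum were mostly lower. Of 23 measured chaperones and degradation factors 16 lay below control and 7 above, and the median was -0.15. Sdf2l1, a partner of the chaperone Hspa5, stood at 9.91 in control, 9.19 with acetate, 8.95 with propionate and 9.07 with butyrate, so control was the high pool. Creld2 (10.58 and 10.01), Manf (8.12 and 7.61), the ubiquitin ligase Syvn1 (9.67 and 9.21) and Hyou1 (10.18 and 9.74) were lower by less than 1.5-fold. Acetate was the lowest pool for none of the 23 genes. Exocrine pancreas is rich in these genes, and its markers, described below, were lower in the same pool (19 of 20 below control, median -0.75). Their part in the folding genes was not tested. Against the mean of the propionate and butyrate pools the list's median was 0.064, and the log2 ratio of Sdf2l1 was 0.18 in place of -0.72.

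Derl3, which takes part in pulling misfolded proteins out of the endoplasmic reticulum, was the list member at least 1.5-fold higher. It stood at 6.30 in control, 7.50 with acetate, 6.35 with propionate and 5.87 with butyrate, 2.30-fold above control and at least 1.5-fold above every other pool. Derl3 is also rich in antibody-secreting cells, and among 13 measured markers of B and plasma cells, Derl3 included, 7 lay above control (median 0.035). Igkc was at 4.81 and 5.58 and Mzb1 at 4.70 and 4.90, both with mean levels below the floor. Below control lay 6, among them Pou2af1 (4.24 and 3.95), Jchain (4.64 and 4.55), Ighm (5.04 and 4.97) and Txndc5 (9.46 and 9.42). Of these 4 only Txndc5 had a mean level above the floor. The part of these cells in the Derl3 value was not tested.

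The promoter of Derl3 holds an element that some of the lower genes of the list hold too and others, such as Sdf2l1, do not. Its promoter and those of 3 lower genes with the element are shown for that reason. The element, CCAAT and CCACG with any 9 bases between them, is the endoplasmic reticulum stress element bound by ATF6 with NF-Y, and its first part is itself a CCAAT box. It was searched on both strands from 250 bases before to 50 bases after the start site in RefSeq promoters (GRCm38.p6). It was found in 0.119% of 32851 promoters and in 9 of the 19 genes of this list with a promoter. Capitals mark the match, which reads on the opposite strand in Derl3 and Creld2.
Derl3, chr10:75893212-75893290, plus strand: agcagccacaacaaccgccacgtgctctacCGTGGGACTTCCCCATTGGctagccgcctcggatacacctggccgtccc
Creld2, chr15:88819490-88819568, plus strand: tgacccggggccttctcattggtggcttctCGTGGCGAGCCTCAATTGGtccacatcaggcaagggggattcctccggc
Syvn1, chr19:6046502-6046580, plus strand: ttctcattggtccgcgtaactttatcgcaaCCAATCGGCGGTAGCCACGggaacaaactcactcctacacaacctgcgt
Hspa5, chr2:34771995-34772073, plus strand: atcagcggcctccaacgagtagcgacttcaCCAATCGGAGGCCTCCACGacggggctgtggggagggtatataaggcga
The log2 ratios of these genes were 1.20 for Derl3, -0.56 for Creld2, -0.46 for Syvn1 and -0.27 for Hspa5, so genes with the same element lay on both sides of control. Over the 9 genes with the element, 4 lay above and 5 below control (median -0.096), and over the 10 without it 2 lay above and 8 below (median -0.15). A match is a description of the sequence and not evidence of binding.

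Stress genes outside the endoplasmic reticulum were higher in small steps. Of 15 cytosolic heat shock proteins 14 lay above control with a median of 0.16, and acetate was the highest of the 4 pools in 13, although none reached 1.5-fold. Hsph1 stood at 7.85 in control, 8.38 with acetate, 7.82 with propionate and 8.07 with butyrate. The small heat shock protein Hspb1 stood at 5.91, 6.36, 6.20 and 6.08. For scale, the standard deviation over the non-liver families was 0.16.

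Immediate early genes, which answer quickly to growth factors and stress, were also mostly higher. Of 29 measured members 23 lay above control with a median of 0.16. The orphan nuclear receptor Nr4a1 stood at 5.74 in control, 6.77 with acetate, 5.82 with propionate and 5.87 with butyrate, which is 2.04-fold above control and high with acetate alone. The zinc finger factor Klf6 stood at 6.39, 7.30, 6.90 and 6.74 (1.88-fold), and Atf3 at 5.78, 6.35, 5.98 and 5.87. Among 13 genes of the integrated stress response 11 lay above control (median 0.20), among 14 p53 targets 11 (median 0.096, led by the cell cycle inhibitor Cdkn1a at 8.49 and 9.06), and among 18 glucocorticoid targets 14 (median 0.074).

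Acute-phase proteins, which the liver secretes in inflammation, were mostly lowest in the acetate pool, though many lay close to control. Of 24 measured members 20 lay below control, with a median of -0.048, and in 19 the acetate level was the lowest of the 4. Orm2, the gene of an alpha-1-acid glycoprotein, stood at 12.02 in control, 11.07 with acetate, 12.17 with propionate and 12.07 with butyrate. Its paralog Orm3 stood at 7.90, 7.07, 7.67 and 8.14. Both were at least 1.5-fold below every other pool, and their order within the family is uncertain because their probes may cross-hybridise. Their paralog Orm1 (12.85 in control and 12.73 with acetate) lay closer to control. So did Serpina3n (13.03 and 12.92), Saa2 (12.78 and 12.70) and Hp (13.05 and 13.00). The serum amyloid gene Saa3 (7.65, 7.23, 7.77 and 8.16) and the amyloid P component Apcs (11.90, 11.52, 11.84 and 11.95) were lowest with acetate by less than 1.5-fold. Orm3 and Orm2 are neighbours on chromosome 4. Coagulation and complement genes had 22 of 30 members below control (median -0.035), none past -0.19.

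Of 16 measured clock genes 9 lay above control (median 0.039). Per3, a repressor of the clock, was 1.54-fold lower, at 7.43 in control, 6.81 with acetate, 7.01 with propionate and 7.36 with butyrate. The activator Arntl (5.62 and 6.04) and the repressor Nfil3 (7.65 and 8.03) lay above control. Rgs16, a brake on G protein signalling, stood at 9.02, 8.19, 9.02 and 8.92, so the acetate pool alone was low (1.77-fold).

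Mitosis genes were higher from a low base. Of 25 measured members 22 lay above control with a median of 0.27, but only 5 had a mean level at or above the floor. The mitotic cyclin Ccnb2 stood at 6.18 in control, 7.31 with acetate, 7.02 with propionate and 6.52 with butyrate (2.19-fold). The proliferation marker Mki67 stood at 5.19, 6.16, 6.04 and 6.06, so the control pool was the low one. The mitotic kinase Cdk1 stood at 5.98, 6.64, 6.65 and 6.05, with acetate and propionate alike. Against the mean of the propionate and butyrate pools the list's median was 0.083. Genes of DNA replication and entry into S phase, of which 11 of 22 lay above control (median 0.0085), had no common direction. Ect2 (1.62-fold), E2f8 (1.58-fold), Spc25 (1.55-fold) and Cdca3 (1.54-fold), cell division genes outside the list that were picked after their values were seen, also passed 1.5-fold.

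Promoters of mitosis genes often carry the cell cycle genes homology region, TTTGAA, at which late cell cycle genes are held off in resting cells, and 3 are shown for that reason. On either strand it was in 17.9% of all promoters and in 15 of the 21 mitosis genes with a promoter. Capitals mark the matches.
Cdk1, chr10:69352898-69353013, minus strand: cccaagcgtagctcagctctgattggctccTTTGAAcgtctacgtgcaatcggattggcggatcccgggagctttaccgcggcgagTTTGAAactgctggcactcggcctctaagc
Cdc20, chr4:118437329-118437391, minus strand: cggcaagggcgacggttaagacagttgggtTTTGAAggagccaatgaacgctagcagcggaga
Mki67, chr7:135716442-135716525, minus strand: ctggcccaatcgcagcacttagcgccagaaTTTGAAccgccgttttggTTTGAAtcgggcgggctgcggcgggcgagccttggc
The 15 genes with the hexamer had a median log2 ratio of 0.37 and the 6 without it 0.23. Cdc20, an activator of the anaphase ubiquitin ligase, lay below the floor (4.27 in control and 5.03 with acetate).

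Matrix genes were higher as a group. Of 44 measured collagens and matrix proteins 41 lay above control with a median of 0.28. At least 1.5-fold higher were 6, of which Lama2 had a mean level below the floor, and acetate was the highest of the 4 pools in 26. Dpt, a collagen-binding matrix protein, stood at 6.86 in control, 7.92 with acetate, 7.60 with propionate and 7.06 with butyrate (2.10-fold). The gelatinase Mmp2 stood at 6.21, 7.25, 6.84 and 6.10 (2.04-fold), Col6a3 at 5.64, 6.49, 6.17 and 5.67 (1.80-fold) and Col3a1 at 5.56, 6.28, 6.04 and 5.69 (1.65-fold). In each the order of the pools was acetate, propionate and then the other 2. Among cells that make matrix, stellate cell markers mostly lay above control as well. Of 16 stellate cell markers 14 lay above control (median 0.15, mean level 7.24 in control and 7.40 with acetate), among them Cygb (8.09 and 8.61), Acta2 (6.71 and 7.20) and the PDGF receptor Pdgfrb (6.88 and 7.29). The defining stellate markers Lrat, an enzyme of vitamin A storage (7.92 and 8.07), and Reln (8.98 and 9.13) lay above control by 0.15 and 0.14. Portal fibroblast markers were split 6 to 5 (median 0.12), with Pdgfra at 6.67 and 7.12. Dpt, Eln, Fbln2 and Col15a1 stand in both that list and the matrix list. Mesothelial markers lay above control in 7 of 8 cases (median 0.16, with 3 at or above the floor). Cholangiocyte markers did so in 10 of 12 (median 0.19, with 5 at or above the floor and Tm4sf4 highest in ratio at 9.70 and 10.27). Those 5 had a median of 0.072, and among them Sox9 (6.74 and 6.73) and Aqp1 (9.46 and 9.43) lay just below control. The part of these cells in the matrix values was not tested.

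Tubulin genes lay above control in 9 of 11 cases (median 0.21). Tuba8 stood at 6.73 in control, 7.87 with acetate, 7.79 with propionate and 6.45 with butyrate (2.20-fold), and Tubb2a at 6.53, 7.56, 7.21 and 6.42 (2.04-fold). Tubulins are similar in sequence, so the member is uncertain. Tuba8 lies next to the interferon-induced protease gene Usp18 on chromosome 6, which was 1.60-fold higher with acetate (7.73 in control and 8.41 with acetate). Of 27 interferon response genes 16 lay above control (median 0.038), and Usp18 was the only one past 1.5-fold.

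**Figure D4:**
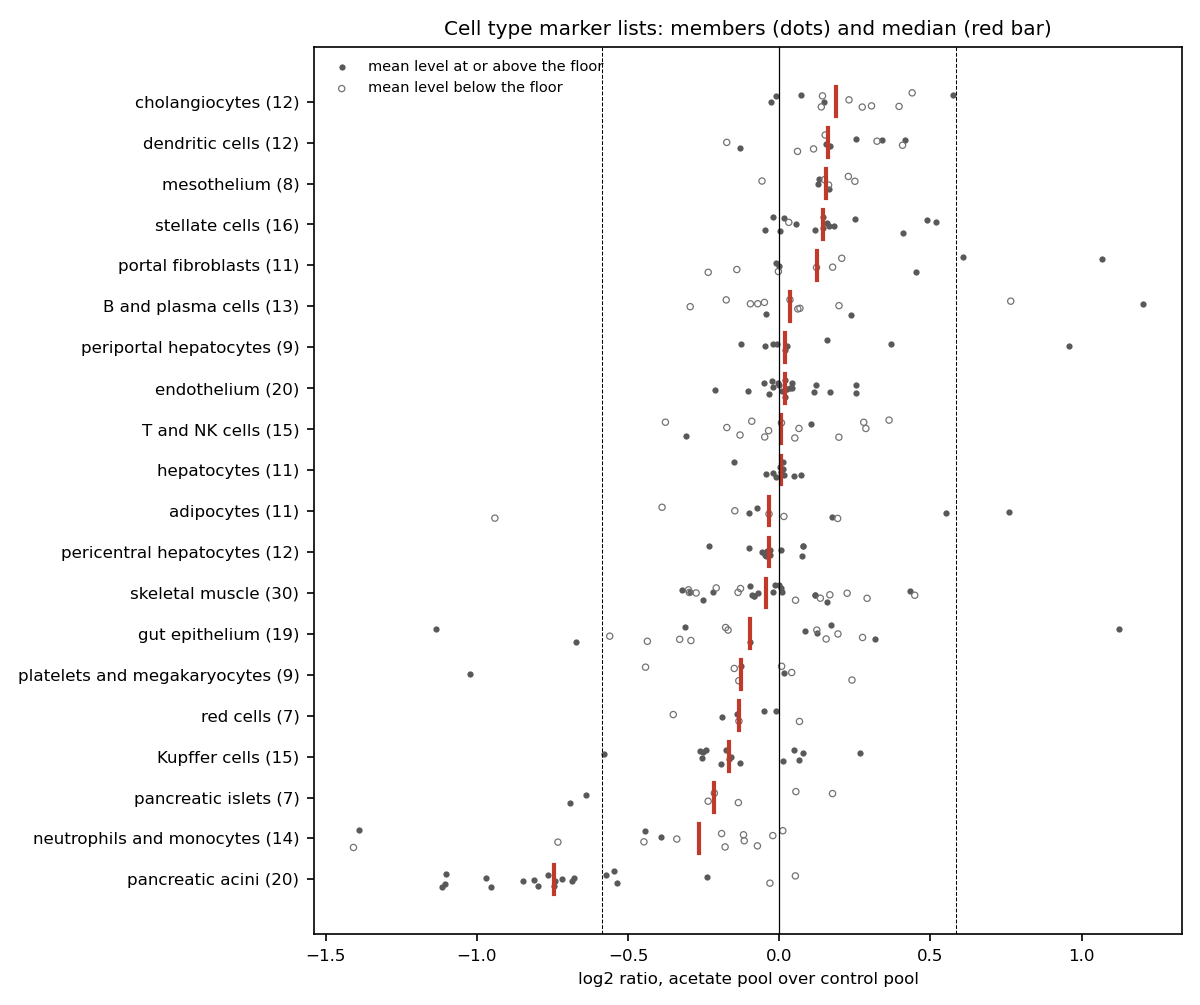
Log2 ratio of acetate over control (horizontal axis) for the members of 20 cell type marker lists, drawn as in the plot of pathway lists. Hepatocyte markers lie close to 0 (median 0.0046), pancreatic acinar markers have the lowest median (-0.75), and several lists, such as T and NK cells, consist mostly of open dots.

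Hepatocyte markers were abundant, as the labelled tissue requires, and close in level between the pools. Their mean level was 12.85 both in control and with acetate, near the top of the scale, and 7 of 11 lay above control with a median of 0.0046. Pericentral (median -0.036) and periportal markers (median 0.020) were close to control too. Aldh1b1, a mitochondrial aldehyde dehydrogenase counted as periportal, was the exception at 7.94 in control, 8.90 with acetate, 8.64 with propionate and 8.10 with butyrate (1.94-fold). Endothelial markers had a median of 0.019 over 20 genes.

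Enzymes of the exocrine pancreas made up the largest group among the lower genes. Of 20 measured acinar markers 19 lay below control, with a median of -0.75, and 14 were at least 1.5-fold lower. Their mean level was 8.82 in control, 8.13 with acetate, 8.32 with propionate and 8.50 with butyrate, so control was the highest pool and acetate the lowest. The elastase Cela1 stood at 8.83, 7.72, 8.07 and 8.56, the zymogen granule protein Sycn at 9.94, 8.83, 9.24 and 9.54, and chymotrypsinogen Ctrb1 at 11.25, 10.53, 10.64 and 10.94. Pdia2, a protein disulfide isomerase of the pancreas, was lower too (6.09 and 5.30), as were the islet hormones Ins2 (6.00 and 5.31) and Ppy (6.12 and 5.48). Pnliprp1 and Pnliprp2, pancreatic lipase relatives next to each other on chromosome 19, stood at 8.39 and 7.42 and at 7.41 and 6.29. Without the markers of pancreas, gut, muscle, fat and blood cells the count of lower genes was 28 in place of 48, and that of higher genes 57 in place of 59. Against the mean of propionate and butyrate the acinar median was -0.29.

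Markers of neutrophils and Kupffer cells were mostly lowest with acetate, and those of other immune cells were not. Of 14 measured neutrophil and monocyte genes 13 lay below control (median -0.26), acetate was the lowest pool in 13, and 3 had a mean level at or above the floor. Those 3, Ngp, S100a9 (5.83 and 5.38) and Csf3r (5.62 and 5.23), lay below the floor with acetate, so the size of their ratios is not exact. The granule protein Ngp stood at 5.79 in control, 4.40 with acetate, 5.54 with propionate and 8.54 with butyrate, and myeloperoxidase Mpo at 5.53, 4.12, 4.86 and 6.02. The mean level of Ngp passed the floor only through the butyrate pool, and that of Mpo lay below the floor. The platelet chemokine Ppbp stood at 6.86, 5.83, 6.92 and 7.48, at least 1.5-fold below every other pool, while the platelet factor Pf4 was below the floor in all pools (5.01 and 4.88) and 4 of 9 platelet markers lay above control. Kupffer cell markers had 10 of 15 members below control (median -0.17), and their mean level was 8.52 in control, 8.39 with acetate, 8.85 with propionate and 9.05 with butyrate. Spic, the transcription factor of iron-recycling macrophages, stood at 6.27, 5.69, 7.54 and 6.90, and Timd4, a receptor for dying cells, at 7.19, 6.93, 7.29 and 7.90. The lysosomal marker Cd68 lay above control instead (7.78 and 8.04). C1qa (8.65 and 8.73), C1qb (10.22 and 10.27), C1qc (8.72 and 8.78) and Vsig4 (10.08 and 10.09) lay slightly above control too. Of 12 dendritic cell markers 10 lay above control (median 0.16), with 6 at or above the floor. The antigen presentation gene H2-Aa among them stood at 7.98 in control, 8.40 with acetate, 8.61 with propionate and 8.51 with butyrate. Xcr1 (3.88 and 3.71) and Clec9a (7.03 and 6.90) lay below control. Against the mean of propionate and butyrate the dendritic cell median was -0.14. Of 15 markers of T and NK cells 8 lay above control (median 0.0070), with 2 at or above the floor. Skeletal muscle markers, 12 of 30 above control, had a median of -0.045, which was 0.46 against the mean of propionate and butyrate. Their mean level was 6.11 in control, 6.09 with acetate, 6.23 with propionate and 4.82 with butyrate, so the butyrate pool alone was low.

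Ly6d, a surface protein anchored by a lipid, stood at 5.93 in control, 7.90 with acetate, 7.03 with propionate and 6.22 with butyrate, 3.90-fold above control and at least 1.5-fold above every other pool. Dhrs9, a retinol and steroid dehydrogenase, stood at 5.47, 6.51, 6.05 and 5.02. The calcium-dependent membrane protein Anxa2 (6.62, 7.52, 7.32 and 6.80) and the G protein regulator Rgs2 (5.98, 6.78, 6.70 and 6.38) were high with acetate and propionate. On the lower side Moxd1, a copper monooxygenase relative, stood at 8.58, 7.55, 7.26 and 8.18, and Hnf4aos, a transcript antisense to the liver regulator Hnf4a, at 6.76, 5.77, 6.39 and 6.96. Of 19 markers of gut epithelium 9 lay above control and 10 below (median -0.097). Gucy2c, the guanylin receptor, was higher (4.94, 6.07, 6.13 and 5.46) while the gut trefoil peptide Tff2 (6.67, 5.54, 5.76 and 5.96) and the gut and pancreas lectin Zg16 (10.22, 9.55, 9.68 and 10.05) were lower.

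In few of the 107 genes did the acetate pool stand far from all 3 others. Acetate was the most extreme of the 4 pools in 52 of the 59 higher genes and 44 of the 48 lower ones. It was at least 1.5-fold beyond each other pool in 6 higher genes (Ly6d, Derl3, Nr4a1, Cidec, Pdk4 and the predicted gene 1700017B05Rik) and in 7 lower ones (Ngp, Ppbp, Orm2, Orm3, Rgs16, Hnf4aos and Cyp8b1). These genes were picked by their values, and Ngp was admitted by the floor only through its high butyrate level. The control pool was the lowest of the 4 in 41 of the higher genes and the highest in 35 of the lower ones, and the part of the control array in these counts was not tested. Replacing the control by the mean of propionate and butyrate left 17 of the 59 and 10 of the 48 past 1.5-fold.

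The promoters of the genes past 1.5-fold were poorer in CpG than most. RefSeq held a promoter for 48 of the 59 higher genes and 36 of the 48 lower ones. The median number of CpG dinucleotides in 300 bases was 12 and 4, against 21 for the promoters of all genes at or above the floor. This is a description of the genes chosen, and many of the lower ones are pancreatic enzymes.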

How the data were processed

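Per the submitters' processing notes the arrays were processed with RMA, a method that subtracts background, equalises the distributions over arrays and summarises probes per probe set. Its version and the array's genome build were not given in the sources used here. Values were deposited as log2 expression per probe set and used as such. Array medians lay between 5.11 and 5.12, so a shift of all genes in a pool cannot be seen. Of 35556 probe sets 21218 had 1 symbol in the platform annotation, 1881 several and 12457 none. The number of arrays limits the precision.

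Ratios are differences of 2 log2 values, computed with Python 3.11.15 and pandas 2.3.3; cyclic loess used limma 3.58.1 in R 4.3.3. The code that counts genes past 1.5-fold was run on simulated data with large shifts and less noise than the spread of ratios seen here. That run checks the code only and cannot show how precise the counts of these pools are. Genes were named by rule: the 30 highest and 30 lowest ratios at or above the floor, without predicted, receptor-family or small RNA names, up to 6 members of each list by absolute ratio, all members of the acetate and transport lists, and paralogs. Where a pathway is described, close-to-control members are added. The genes compared and the 60 lists, of 1127 genes with 1010 measured, were chosen with earlier results of these data known. Promoter sequences are from RefSeq (GRCm38.p6). Alternatives changed the normalization, the probe set rule, the floor, the fold and the comparator.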

Additional observations from a re-analysis of the deposited data

Results flagged for a closer look

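For 3 genes the acetate and butyrate pools lay at least 1.5-fold from control in opposite directions. With 1 array per group this difference was not tested, and both ratios use the same control array. Ngp, a neutrophil granule gene, had a log2 ratio of -1.39 with acetate and 2.75 with butyrate. Its mean level passed the floor only through the butyrate pool. Ppbp, a platelet chemokine, had -1.02 and 0.62. Pdk4, a kinase of pyruvate dehydrogenase, had 0.68 and -0.72.

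Probe sets without a single symbol entered no count of genes. The 4 shared by Gsta1, Gsta2 and related gene models had log2 ratios of 2.90 to 3.31, above that of every gene with a symbol of its own. Among 4815 probe sets with several symbols or none and a mean level at or above the floor, 84 were at least 1.5-fold higher with acetate than control (1.74%) and 123 lower (2.55%).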

How the results depend on the processing

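No paired analysis was possible because each group has 1 array. The counts of 59 higher and 48 lower genes became 60 and 46 with cyclic loess, 61 and 46 with each array centred on its median, 61 and 49 with the probe set of highest mean, and 49 and 42 with both arrays at or above the floor. Without a floor they were 131 and 93, at 1.3-fold 180 and 161, and at 2-fold 14 and 7; these follow from the genes or folds admitted. Without markers of other tissues and blood cells they were 57 and 28. Against the mean of the other 3 pools they were 32 and 32, and against the mean of propionate and butyrate 35 and 50; the cause was not tested. Of 71 named genes past 1.5-fold, all kept their direction and stayed past 1.5-fold with loess, centring and the other probe set rule. Against the other 3 pools all 71 kept their direction and 33 stayed past 1.5-fold, and against propionate and butyrate 70 and 24. The exception in direction was Sdf2l1, at 0.18. No list median moved by 0.1 or more with loess, centring or the probe set rule, whereas 13 did against the other 3 pools and 17 against propionate and butyrate. With the mean in place of the median 9 moved, and with members at or above the floor in both arrays 8 moved, mitosis to 0.66. For mitosis only Ccnb2 (1.13), Cdk1 (0.66) and Cks2 (0.21) were left, so that median is the ratio of Cdk1 alone. Single arrays of pooled RNA limit all values, and signal near background limits those below the floor.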
